A study of Mus musculus with 9 samples.

Results

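Among the probes of a mouse liver array, 942 of 97836 carry an Ensembl transcript identifier (ENSMUST) as their name, and these were taken as the Ensembl transcript probes. They were chosen by name alone, outside the array's control spots. Each identifier had 1 probe, printed as 2 spots. The 461 probes that were above background on at least 3 of 9 arrays are described in depth. They are set beside the catalogue probes of the array maker, of which 29011 of 39027 were tested. In all, 62036 probes of the array were tested. The identifiers are given as the files print them. No table used here pairs them with gene names, positions or coding status, so the working label of noncoding transcripts could not be checked, and no probe sequence or coordinate is given.

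The arrays were single-colour and held Cy3-labelled RNA from livers of 20-week-old males of C57BL/6J, an inbred mouse strain. The 3 metformin pools came from mice fed a diet with fat as 45% of its energy over 17 weeks and gavaged with metformin (3 mg/kg daily) during the final 5 weeks. The 3 high fat diet pools came from mice on the same diet that received saline by gavage in those 5 weeks. The 3 control pools came from mice on normal chow for 17 weeks, for which the labels record no gavage, so diet and saline gavage cannot be told apart in any comparison with control. Each pool held RNA of 4 mice, or 12 mice per group. A pooled value averages over its mice, so the spread between pools is not that between single mice.

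Long noncoding RNAs are transcripts that are not read into a protein of their own. Some stay at the chromatin near the gene that makes them and affect neighbouring genes, others act as scaffolds for proteins, and for many the transcript has no known role. As a class they are found at lower levels than mRNAs and often in few tissues. The liver is the main site at which dietary fat and sugar are turned into stored lipid, and metformin, a drug for type 2 diabetes, lowers the liver's release of glucose.

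A level below is the log2 signal of a probe, averaged over its spots, minus the array's 75th percentile, so that 0 is the array's upper quartile. A level of one probe says nothing beside that of another. A change is a difference of mean levels with its standard error (SE) from a limma fit over all 9 arrays, and a probe passed the test at a Benjamini-Hochberg adjusted p under 0.05 over all tested probes. In bulk tissue, fewer cells of a type and less RNA per cell cannot be told apart. None of 38 liver and other cell type markers had a probe with a name, so the tissue label could not be checked from markers. The arrays lay on 3 slides. Slide 1 held the 3 control pools and high fat diet pool 1, slide 2 held high fat diet pools 2 and 3 and metformin pools 1 and 2, and slide 3 held metformin pool 3. No slide held both metformin and control pools, so that comparison has no within-slide value. Control pool 1 stood apart among the Ensembl transcript probes: 22 of 461 lay more than 2 log2 units above their median over the other arrays there, against 0 to 2 on each other array. No such count over other probes is given here, so this cannot be called particular to the Ensembl transcript probes.

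Less than the catalogue's share of the Ensembl transcript probes gave a signal. They were above background on at least 3 arrays in 48.9% of cases, against 74.3% of catalogue probes, 58.4% of NONCODE probes, 60.4% of RIKEN probes and 47.5% of RefSeq probes. Of the 942, 395 (41.9%) were above background on 0 arrays, 86 on 1 or 2, 148 on 3 to 8 and 313 (33.2%) on all 9. For the catalogue, 20.1% were on 0 arrays and 64.1% on all 9. The 29 probes just inside the limit, on 3 arrays, had a median mean level of -3.71, and the 31 just outside it, on 2 arrays, had -3.80. The 313 on all 9 arrays spanned mean levels of -3.71 to 7.46.

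Per array, 49.2%, 37.6% and 43.5% of the 942 probes were above background in metformin pools 1, 2 and 3. The share was 47.6%, 41.7% and 41.6% in the high fat diet pools and 45.9%, 44.4% and 49.6% in the control pools. The groups overlapped. The mean difference was -2.97 percentage points for high fat diet against control (two-sided exact permutation p = 0.3), -0.21 for metformin against high fat diet (exact p = 1) and -3.18 for metformin against control (exact p = 0.4). With 3 pools against 3 the smallest exact p is 0.1.

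**Figure D1:**
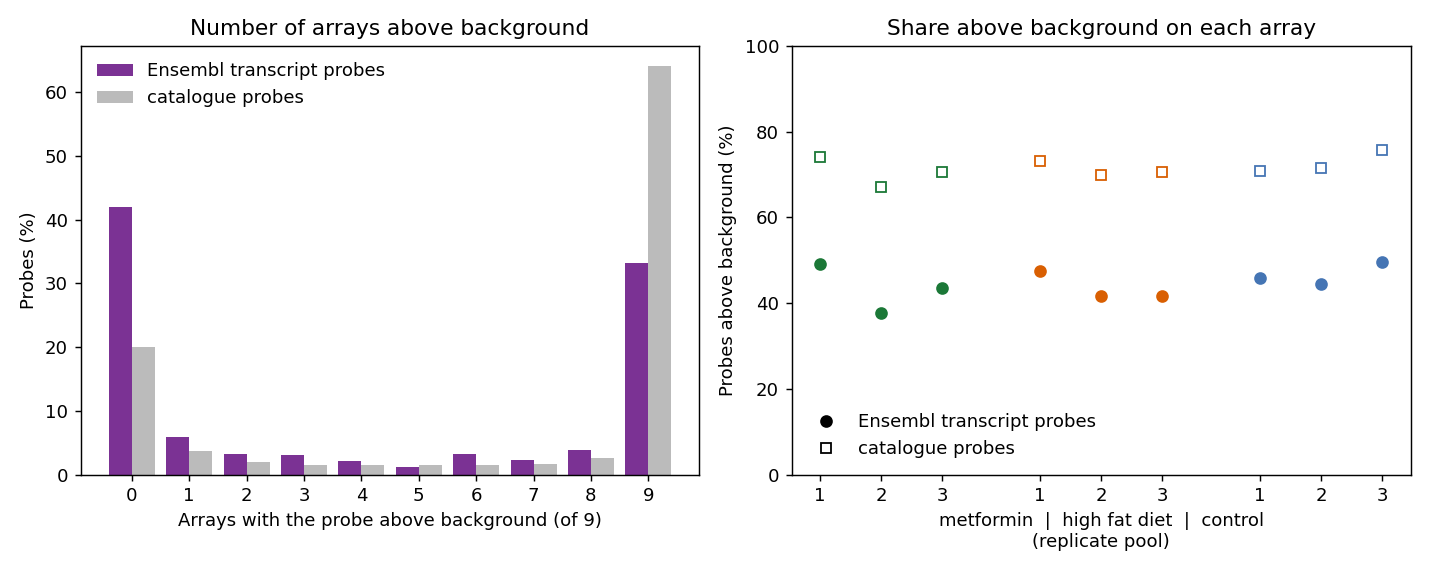
Left, share of probes (%) by the number of arrays, of 9, on which they were above background, for Ensembl transcript probes and catalogue probes. Right, share of probes above background (%) on each array, with the 3 pools of metformin, high fat diet and control from left to right. Ensembl transcript probes lay between 37.6% and 49.6% on every array, and catalogue probes between 67.1% and 75.6%.

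In high fat diet against control, 1 Ensembl transcript passed the test, and it was lower. ENSMUST00000143272 had levels of -3.30, -4.04 and -4.93 in the high fat diet pools, against -1.27, -1.61 and -1.11 in the control pools. Every high fat diet pool lay below every control pool, and the probe was above background in all 3 control pools but in 1 high fat diet pool. It met the filter for testing only with the control pools, so its p is not independent of being high there. It fell by 2.76 on the log2 scale (SE 0.36, limma adjusted p = 0.0480). As 2 of the 3 high fat diet pools were below background, the size of this change is uncertain. It was -1.05 with normexp background correction (offset 50), which lifts low signals and so shrinks changes of dim probes. Within slide 1, where high fat diet pool 1 stood beside the 3 control pools, the difference was -1.97. Passing the test were 1 of 461 Ensembl transcript probes, against 0.0451% of all tested probes. That is 0 higher (background 0.0129%) and 1 lower (background 0.0322%). That count was 7 without high fat diet pool 1 and 0 without any one of the other 8 pools. Of all 62036 tested probes, 28 passed in the main fit and 296 without high fat diet pool 1. Without any one of the other 8 pools, 0 to 33 of them passed. With the slide as a block, 0 Ensembl transcript probes passed, against 2 of all tested probes, and the adjusted p of ENSMUST00000143272 was 0.535.

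The next lowest by p among the probes with no overlap between these groups did not pass. ENSMUST00000184065 had levels of -5.16, -4.50 and -4.13 in high fat diet pools and -2.39, -2.69 and -2.75 in control pools (change -1.99, SE 0.28, adjusted p = 0.0545). It was above background in the control pools alone, which makes its signal at least 1.41-fold lower in high fat diet. Such a bound sets the bright group against the lowest signal called above background on the dim arrays. With normexp its change was -0.44. ENSMUST00000188287 (change -1.33, adjusted p = 0.149, at least 1.14-fold lower) and ENSMUST00000182689 (change -2.35, adjusted p = 0.150, at least 2.48-fold lower) were likewise above background in every control pool and in no high fat diet pool. With normexp these changes were -0.27 for ENSMUST00000188287 and -0.81 for ENSMUST00000182689. ENSMUST00000184065 and ENSMUST00000188287 entered the test through the control pools alone, so their p is not independent of being high there. ENSMUST00000182689 met the filter for testing only with the control pools, so the same holds for its p.

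ENSMUST00000188856 lay higher under the diet with no overlap between pools, without passing the test. It had levels of -0.18, -0.11 and -0.59 in high fat diet pools and -1.37, -1.03 and -0.79 in control pools (change 0.77, SE 0.20, adjusted p = 0.199). ENSMUST00000183621 gave -1.46, -1.37 and -1.49 in high fat diet pools and -2.03, -1.88 and -1.81 in control pools (change 0.47, SE 0.13, adjusted p = 0.204). Both were above background on all 9 arrays. ENSMUST00000190085 (change 0.60, adjusted p = 0.214) showed the same order, and so did ENSMUST00000186923 (change 0.76, adjusted p = 0.212), which was above background in 2 high fat diet pools and in no control pool. ENSMUST00000186923 was above background in its first spot only, and its second-spot levels overlapped between these groups (change 0.51, adjusted p = 0.695). With normexp the changes were 0.21 for ENSMUST00000183621 (0.27 from the first spot alone), 0.36 for ENSMUST00000190085 and 0.18 for ENSMUST00000186923.

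At looser limits more Ensembl transcripts lay lower than higher under the diet. At an unadjusted p under 0.05, 63 Ensembl transcript probes (13.7%) were lower in high fat diet, against 7.20% of all tested probes and 9.44% of catalogue probes of like signal. Like signal means that catalogue probes were weighted to the same distribution of mean levels. At that p, 15 (3.25%) were higher, against 4.88% of all tested probes, and 78 differed in either direction, against 12.1%. A change of at least 2-fold with p under 0.05 was seen downward in 27 (background 1.88%, like signal 3.38%) and upward in 1 (background 0.434%). The pools did not overlap in 91 probes (19.7%, background 15.4%), 32 of them higher (background 7.27%) and 59 lower (background 8.13%). A change above 0 was found in 201 of 461 (43.6%), against 48.2% of all tested probes. The median change over the 461 was -0.035, against -0.010 over all tested probes and -0.025 over catalogue probes of like signal. Without control pool 1 the median change was 0.00085, and 51 probes were lower at p under 0.05, or 11.1%, against 11.3% of catalogue probes of like signal. With the slide as a block, 29 were lower and 4 higher at that p.

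Between metformin and high fat diet, 0 of 461 Ensembl transcript probes passed the limma test, against 0.00645% of all tested probes (0.00484% higher and 0.00161% lower). The unadjusted p was under 0.05 for 27, against 6.64% of all tested probes. Of these, 12 (2.60%) were higher and 15 (3.25%) lower, against 3.31% and 3.34% of all tested probes. A change of at least 2-fold at that p was seen upward in 1 (background 0.226%) and downward in 3 (background 0.300%). The pools did not overlap in 50 probes (10.8%), against 16.2% of all tested probes and 16.5% of catalogue probes of like signal. They were 28 higher (background 8.04%) and 22 lower (background 8.15%). A change above 0 was found in 250 (54.2%), against 51.3% of all tested probes. The median change was 0.025, against 0.0069 over all tested probes and -0.023 over like-signal catalogue probes. Without high fat diet pool 3 it was -0.012 for the Ensembl transcript probes.

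The smallest p in this comparison belonged to ENSMUST00000181411, at -4.15, -3.63 and -3.60 in metformin pools and -5.49, -5.12 and -4.57 in high fat diet pools (change 1.27, SE 0.24, adjusted p = 0.396). It was above background in the 3 metformin pools alone, and there in its second spot only. It entered the test through those pools alone, so its p is not independent of being high there. The change was 0.024 from the first spot (adjusted p = 0.994) and 2.51 from the second (adjusted p = 0.365). ENSMUST00000186042 had -1.45, -1.35 and -1.44 in metformin pools and -1.99, -1.95 and -1.90 in high fat diet pools (change 0.54, SE 0.12, adjusted p = 0.502). The pools of each group lay within 0.10 of each other there, and on slide 2 alone the difference was 0.53. ENSMUST00000181927 (change 0.59, adjusted p = 0.542) and ENSMUST00000183916 (change 0.69, adjusted p = 0.586) also lay higher in every metformin pool.

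On the lower side, ENSMUST00000189920 had -3.59, -3.81 and -3.45 in metformin pools and -2.01, -2.34 and -3.03 in high fat diet pools (change -1.16, SE 0.27, adjusted p = 0.502). ENSMUST00000192173 (change -0.69, adjusted p = 0.573) and ENSMUST00000190911 (change -0.76, adjusted p = 0.611) lay lower in every metformin pool. For ENSMUST00000186830 (change -1.45, SE 0.44, adjusted p = 0.603) the direction rested on which spots were read. Its first spot in metformin pools 1 and 3 carried the scanner software's outlier mark and was left out, and the change was 0.45 with those spots kept and 0.045 from the second spot alone. With normexp, the 4 transcripts named here as higher had changes of 0.30 to 0.38 and the 4 named as lower had -0.24 to -0.063.

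Metformin-treated mice differed from control mice in diet and in drug, and 5 Ensembl transcripts (1.08%) passed the test in that comparison. The share was 0.546% of all tested probes and 0.789% of like-signal catalogue probes. The 5 transcripts were 1 higher (background 0.237%) and 4 lower (background 0.309%). ENSMUST00000184065 had levels of -5.68, -4.91 and -5.26 in metformin pools, against -2.39, -2.69 and -2.75 in control pools. It fell by 2.67 on the log2 scale (SE 0.28, limma adjusted p = 0.0152). It was below background in all metformin pools, which bounds the difference at 1.37-fold or more. With normexp the change was -0.43 (adjusted p = 0.0705). The probe entered the test through the control pools alone, so its p is not independent of being high there.

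ENSMUST00000143272 had -4.14, -3.39 and -3.82 in metformin pools, all below background, and fell by 2.45 relative to control (SE 0.36, adjusted p = 0.0329), at least 3.32-fold lower. With normexp the change was -0.88 (adjusted p = 0.0130). The levels in metformin and in high fat diet pools overlapped (change between them 0.31, SE 0.36, adjusted p = 0.920). In both comparisons the same 3 control pools stand on the other side, so they are not independent. ENSMUST00000143272 met the filter for testing only with the control pools, so neither p is independent of being high there.

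The other transcripts that were lower were above background on all 9 arrays. ENSMUST00000187833 had -1.54, -0.48 and -0.96 in metformin pools, -0.93, -0.70 and 0.36 in high fat diet pools, and 2.02, 1.35 and 0.89 in control pools. It fell by 2.41 in metformin against control (SE 0.40, adjusted p = 0.0416), and its high fat diet pools overlapped those of metformin and not those of control. ENSMUST00000188980 had -2.60, -2.05 and -2.67 in metformin pools, -2.65, -2.36 and -0.79 in high fat diet pools, and 1.10, -0.0011 and -0.27 in control pools. It fell by 2.71 (SE 0.49, adjusted p = 0.0495), and its change was -1.63 with normexp (adjusted p = 0.0340).

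ENSMUST00000181411 had levels of -4.15, -3.63 and -3.60 in metformin pools and -4.98, -5.30 and -5.26 in control pools, and rose by 1.39 (SE 0.24, adjusted p = 0.0472). Its 2 spots disagreed. The second spot had signals of 35.8, 41.0 and 48.0 in the metformin pools, while the first spot had 4.1, 6.6 and 4.4 there and 4.7 to 8.1 in the other groups. The second spot had 18.8 in high fat diet pool 3 and 4.9 to 8.0 in the remaining pools of high fat diet and control. From the first spot alone the change was -0.21 (adjusted p = 0.652), and from the second alone it was 3.00 (adjusted p = 0.0396). With normexp it was 0.37 (adjusted p = 0.0886). Whether the second spot measured the transcript was not tested. The probe entered the test through the metformin pools alone, so its p is not independent of being high there.

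**Figure D2:**
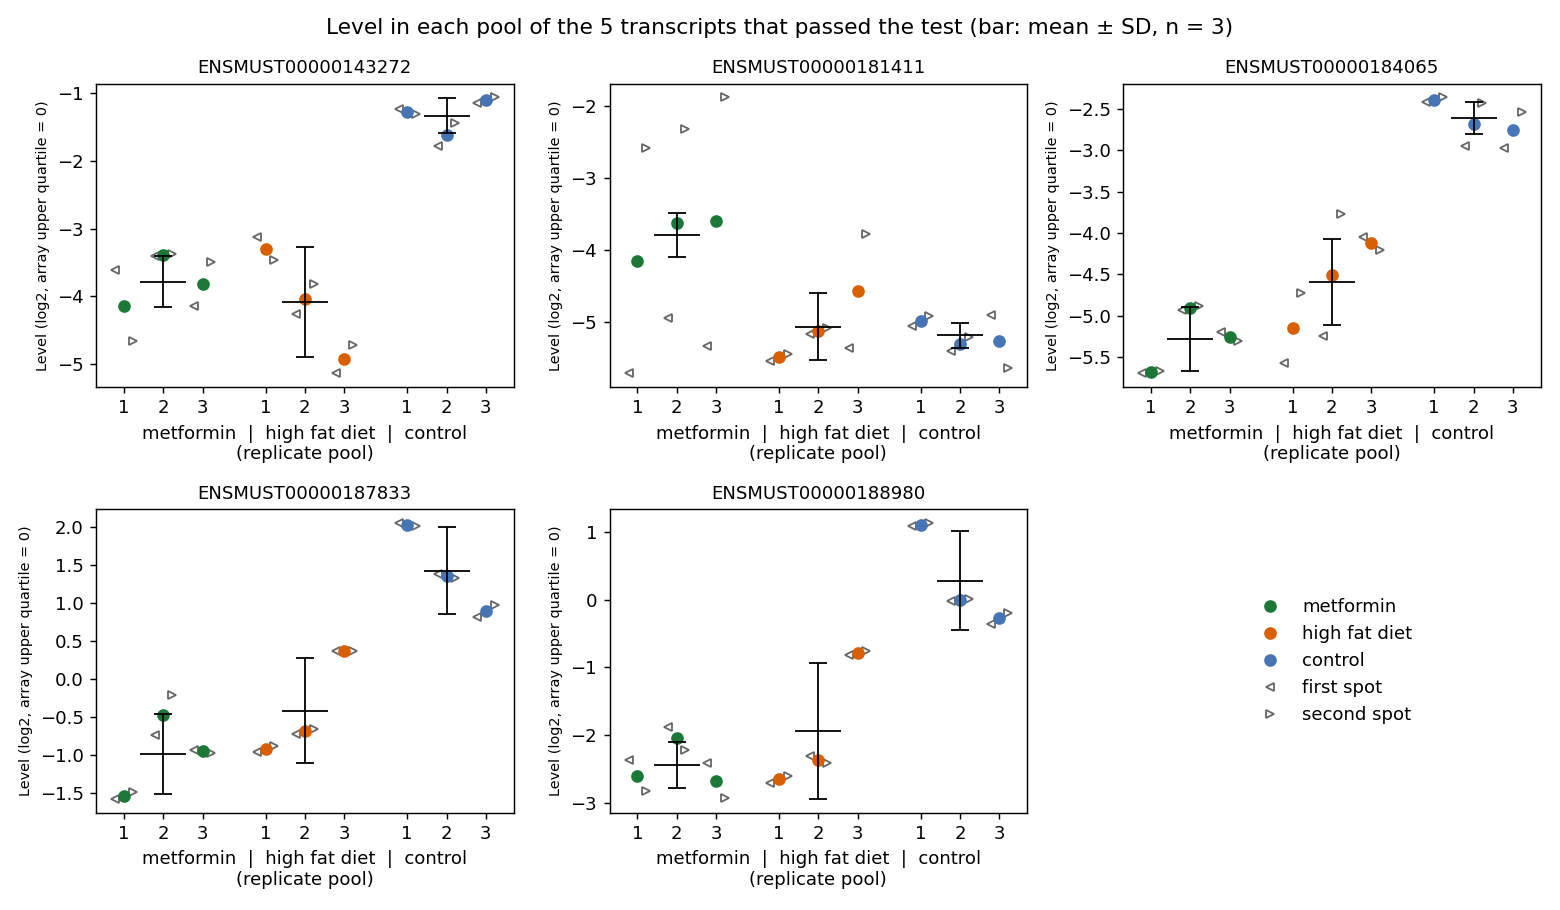
Level (log2 relative to the array's upper quartile) in each pool of the 5 Ensembl transcripts that passed the test in at least 1 comparison, with metformin, high fat diet and control from left to right. Filled circles are probe levels, open triangles the 2 spots, and bars the mean and SD of 3 pools. In ENSMUST00000181411 only the second spot was high in the metformin pools, whereas both spots of the other 4 lay low in every metformin pool relative to every control pool.

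The number of Ensembl transcripts past the test in metformin against control rested on single pools. It was 21 without control pool 1, 9 without high fat diet pool 1 or pool 3, 3 without high fat diet pool 2, 2 without metformin pool 2, 1 without control pool 3 or metformin pool 1, and 0 without control pool 2 or metformin pool 3. The number over all 62036 tested probes, 339 in the main fit, moved with the same pools. That number was 2711, 7 and 89 without control pools 1, 2 and 3. Without high fat diet pools 1, 2 and 3 it was 678, 187 and 584, and without metformin pools 1, 2 and 3 it was 77, 48 and 2. Without control pool 1 and high fat diet pool 3 together, the changes were -2.56 for ENSMUST00000184065, -2.42 for ENSMUST00000143272, -2.11 for ENSMUST00000187833, -2.30 for ENSMUST00000188980 and 1.49 for ENSMUST00000181411, all with adjusted p of 0.0204 to 0.0276. With the slide as a block 0 Ensembl transcripts passed, as did 0 of all tested probes, and ENSMUST00000143272 then had a change of -1.25 and ENSMUST00000181411 one of 0.65. Over all alternatives, changes were -3.53 to -0.43 for ENSMUST00000184065, -3.19 to -1.93 for ENSMUST00000187833 and -3.67 to -1.63 for ENSMUST00000188980. Each of these ranges holds larger and smaller falls than the main fit.

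Transcripts that were higher in every metformin pool than in every control pool, short of the threshold, included ENSMUST00000181323 at 0.17, -0.14 and 0.16 in metformin pools and -0.57, -0.79 and -0.84 in control pools (change 0.80, SE 0.15, adjusted p = 0.0509). Its high fat diet pools, at -0.42, -0.38 and -0.50, lay between, with no overlap with either group. ENSMUST00000188856 (change 1.07, adjusted p = 0.0540) and ENSMUST00000183916 (change 1.03, adjusted p = 0.0561, and 0.46 with normexp) had the same order against control.

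Pools of metformin and control did not overlap in 131 Ensembl transcript probes (28.4%), against 24.9% of all tested probes. They were 45 higher (9.76%) and 86 lower (18.7%), against 12.5% of all tested probes in each direction. Of like-signal catalogue probes, 9.19% were higher and 15.3% lower. A change above 0 was found in 211 (45.8%), against 49.3% of all tested probes. An unadjusted p under 0.05 was found in 105 (22.8%), against 19.1% of all tested probes. Of these, 69 (15.0%) were lower and 36 (7.81%) higher, against 10.4% and 8.65% of all tested probes. The like-signal catalogue had 13.7% lower and 6.45% higher. This lean was absent with normexp, which gave 40 lower and 40 higher. With the slide as a block it was kept in fewer probes, at 20 lower and 9 higher. Without control pool 1, 64 (13.9%) were lower, against 19.1% of like-signal catalogue probes, which is the reverse order of the shares. A change of at least 2-fold with p under 0.05 was found downward in 31 (6.72%, background 2.58%, like signal 4.57%) and upward in 3 (background 0.651%, like signal 0.543%). In 39 probes (8.46%) all 6 pools of the fat-fed groups lay below all control pools, against 4.64% of all tested and 6.04% of like-signal catalogue probes, and in 21 (4.56%) above, against 4.25% and 2.84%. The difference between these shares was not tested.

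**Figure D3:**
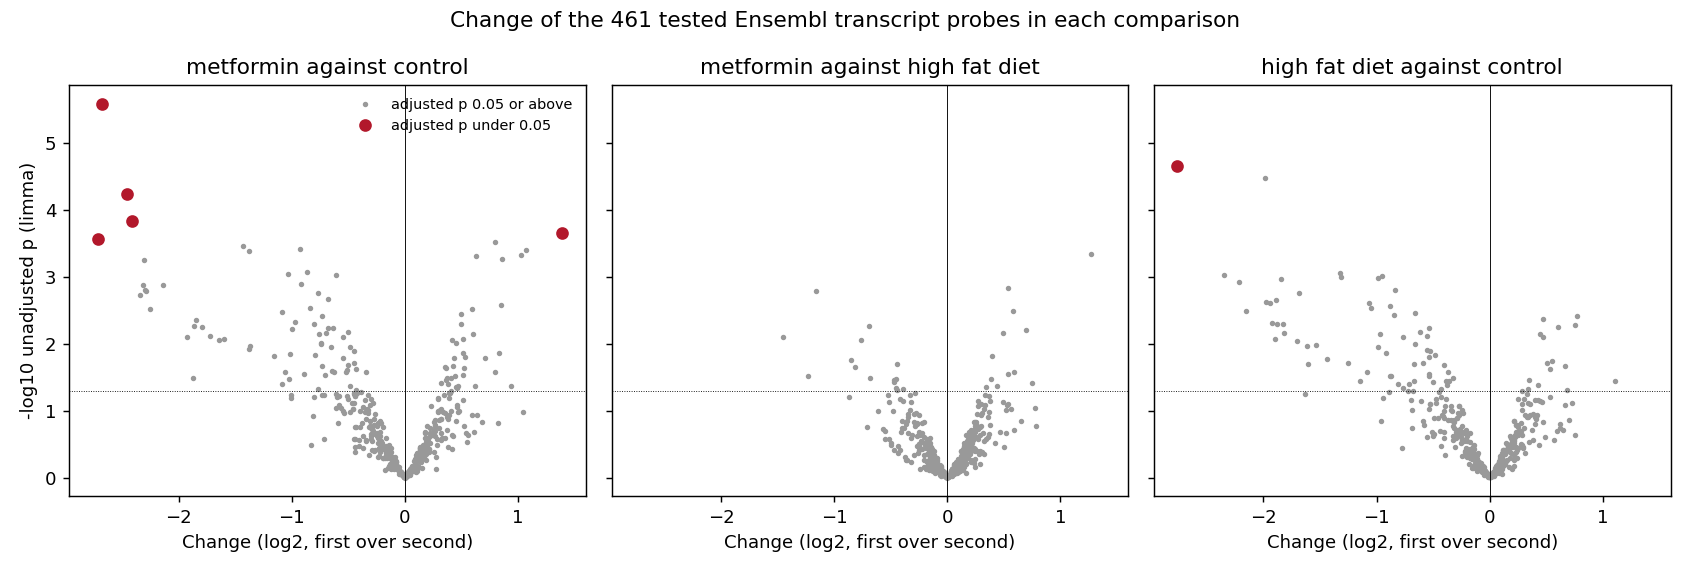
Change (log2, horizontal) and unadjusted limma p (-log10, vertical) of the 461 tested Ensembl transcript probes in each comparison, named in each panel as first over second. Large points passed the adjusted threshold of 0.05, which were 5, 0 and 1 probes from left to right, and the dotted line marks an unadjusted p of 0.05.

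**Figure D4:**
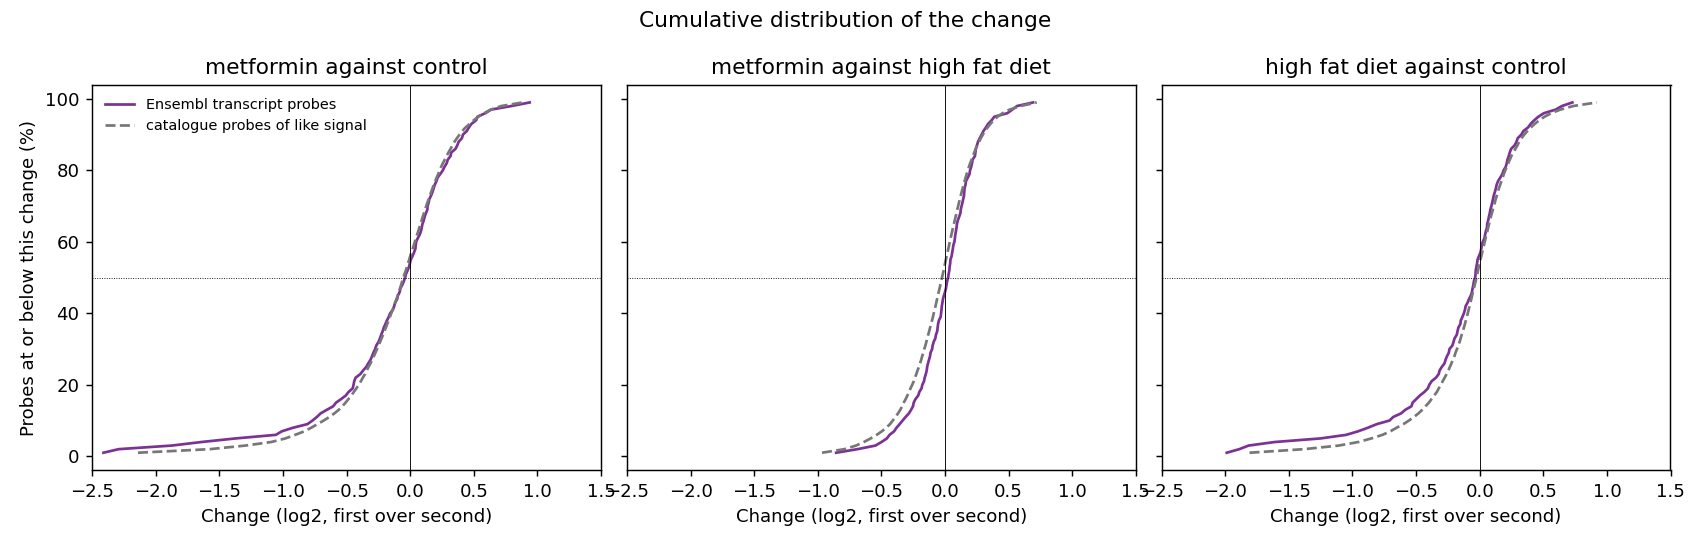
Cumulative share of probes (%) by change (log2, first group named over second), for the 461 Ensembl transcript probes and for catalogue probes of like signal. The curves cross the 50% line near 0 in each panel, at medians of -0.041, 0.025 and -0.035 for the Ensembl transcript probes, and the lower tail of both comparisons with control extends further left for them.

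That lower tail held a set of probes with 1 profile over the pools, which was singled out after the values were seen. In 11 of 461 Ensembl transcript probes (2.39%), control pool 1 lay at least 2-fold above the mean of the other control pools and high fat diet pool 3 at least 2-fold above the mean of the other high fat diet pools. The share was 0.445% over all tested probes and 1.14% over catalogue probes of like signal. Set against their own mean, the median of the 11 was -0.92, -0.68 and -1.02 in metformin pools, -0.82, -0.95 and 0.34 in high fat diet pools, and 2.65, 1.00 and 0.44 in control pools. The remaining Ensembl transcript probes had medians of -0.079 to 0.12 on these arrays.

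Of the 9 of these 11 that were above background on all 9 arrays, the largest spreads belonged to ENSMUST00000188980 (SD 1.41 over 9 arrays), ENSMUST00000190867 (SD 1.34), ENSMUST00000190543 (SD 1.30) and ENSMUST00000189721 (SD 1.28), which also had the largest SD of all 313 Ensembl transcripts above background on every array. ENSMUST00000190867 had -1.17, -1.11 and -1.73 in metformin pools, -1.38, -1.77 and -0.14 in high fat diet pools, and 2.57, -0.14 and -0.81 in control pools. ENSMUST00000190543 had -1.64, -1.44 and -1.68 in metformin pools, -1.84, -1.47 and -0.37 in high fat diet pools, and 2.17, 0.08 and -0.25 in control pools. In ENSMUST00000190867 and ENSMUST00000190543, control pool 1 stood more than 2 log2 units above the other control pools.

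ENSMUST00000189721 had -1.04, -0.44 and -1.09 in metformin pools, -1.02, -0.79 and 0.36 in high fat diet pools, and 2.69, 1.17 and 0.47 in control pools (change in metformin against control -2.30, SE 0.53, adjusted p = 0.0761). The other members of the profile were ENSMUST00000136639, ENSMUST00000185603, ENSMUST00000187887, ENSMUST00000190102, ENSMUST00000190203, ENSMUST00000190777 and ENSMUST00000192472. All 11 had changes below 0 in both comparisons with control. The set was chosen for a high control pool 1, which raises the control mean, so this direction follows in part from the choice. Of the 11, 10 had identifiers in the number range from ENSMUST00000185000 upward, where 196 Ensembl transcript probes were tested, and 1 lay among the 265 tested before it. The identifier number is no genome position. Whether these transcripts share anything beyond the profile was not tested.

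**Figure D5:**
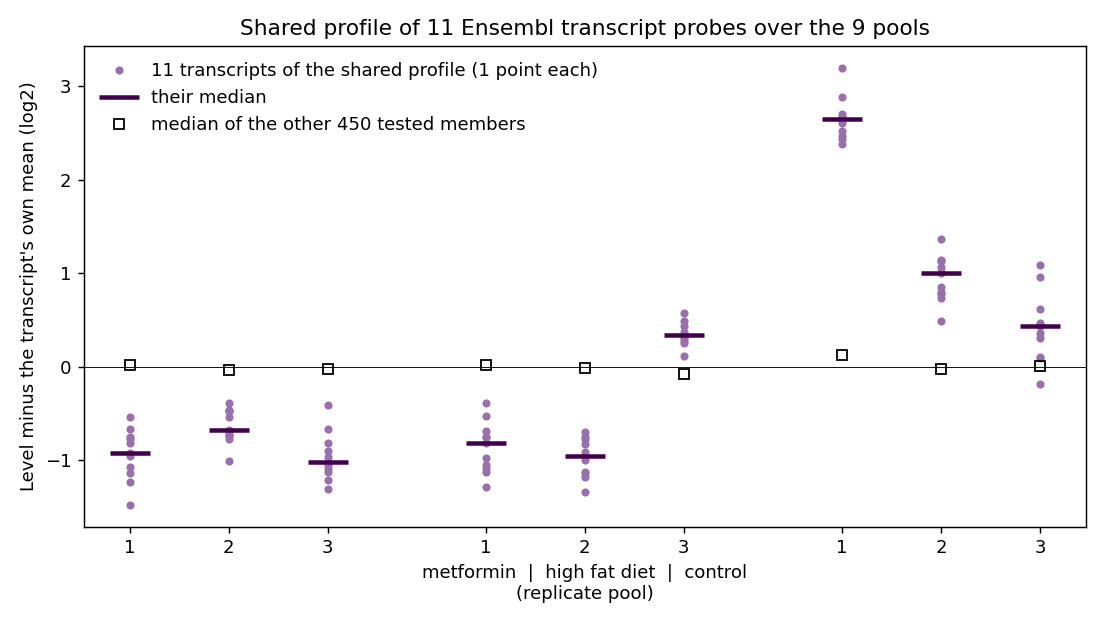
Level minus the transcript's own mean over the 9 arrays (log2) for the 11 Ensembl transcripts of the shared profile, with pools of metformin, high fat diet and control from left to right. Points are transcripts, bars their median and squares the median of the other 450 tested Ensembl transcripts. Control pool 1 stands highest, at a median of 2.65, and high fat diet pool 3, at 0.34, lies above the other high fat diet pools. The set was chosen for these pools being high within their groups.

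Presence in 1 group alone was rare. Above background in all 3 control pools and in none of the other 6 were 4 of 942 Ensembl transcript probes (0.425%), against 0.150% of all 97836 probes and 0.187% of catalogue probes. These were ENSMUST00000184065, ENSMUST00000188287, ENSMUST00000136639 and ENSMUST00000188502. They entered the test through the control pools alone, so a p for them is not independent of being high there. ENSMUST00000136639 had -5.40, -4.93 and -4.83 in metformin pools, -4.31, -5.10 and -3.62 in high fat diet pools, and -1.22, -2.92 and -2.96 in control pools (metformin against control -2.69, SE 0.49, adjusted p = 0.0506, at least 1.62-fold lower). ENSMUST00000188502 rested on its second spot alone, which had levels of -3.40, -2.70 and -5.39 in metformin pools, -3.78, -4.40 and -3.42 in high fat diet pools, and -2.71, -2.77 and -2.98 in control pools, so that metformin pool 2 was as high as the control pools. For metformin pools alone the count was 1 (0.106%), ENSMUST00000181411, against 0.0102% of all probes, and for high fat diet pools alone it was 0, against 0.00307%.

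Some Ensembl transcripts hardly varied. ENSMUST00000191209 had -1.09, -1.05 and -1.09 in metformin pools, -0.99, -1.05 and -1.22 in high fat diet pools, and -0.93, -0.99 and -1.03 in control pools, an SD of 0.081 over 9 arrays. ENSMUST00000180385 averaged 0.94 ± 0.10 in metformin, 1.01 ± 0.06 in high fat diet and 1.02 ± 0.09 in control (SD, n = 3 each). ENSMUST00000192263 (SD 0.085) and ENSMUST00000132294 (SD 0.088) were as steady. Their changes in the 3 comparisons lay between -0.10 and 0.10, and none passed the test. Both follow from choosing the transcripts by their small SD.

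Within groups, the Ensembl transcript probes spread about as widely as catalogue probes of their signal. Their median residual SD was 0.256, against 0.273 for the like-signal catalogue and 0.241 over all tested probes. It was 0.436 for the 78 probes with mean levels of -4 to -3 and 0.213 for the 39 with levels of 0 to 1. By group, the median SD over 3 pools was 0.194 in metformin, 0.230 in high fat diet and 0.235 in control. The median over all tested probes was 0.167, 0.199 and 0.243 in the same order. An SD over 1 was seen in 4 Ensembl transcript probes in metformin, 6 in high fat diet and 18 in control, and no such count over other probes is given here. Across these 461 probes, Pearson's r between arrays was 0.969 to 0.980 for metformin with high fat diet pools and 0.906 to 0.969 for control with either. For control pool 1 with either it was 0.906 to 0.934, and for control pools 2 and 3 it was 0.954 to 0.969. Within groups, r was 0.948 to 0.981 in control, 0.968 to 0.974 in high fat diet and 0.974 to 0.981 in metformin. These values describe probes that share arrays and are not independent.

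The 2 spots of a probe mostly gave the same signal. Their median gap was 0.189 on the log2 scale, against 0.188 for like-signal catalogue probes, and 389 of 461 (84.4%) had both spots above background on at least 3 arrays. In 22 probes (4.77%), 1 spot was above background on at least 3 arrays and the other on none, against 4.53% of like-signal catalogue probes. ENSMUST00000181411, ENSMUST00000186830, ENSMUST00000186923 and ENSMUST00000188502 were among these 22.

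The named probe most like each of the 5 transcripts past the test was looked up among 2132 probes with a RefSeq or clone name, by Pearson's r over the 9 arrays. It was Gm41568 for ENSMUST00000143272 (r = 0.967), Speer5-ps1 for ENSMUST00000184065 (r = 0.950), Gm42405 for ENSMUST00000187833 (r = 0.966) and ENSMUST00000188980 (r = 0.967), and 2610005L07Rik for ENSMUST00000181411 (r = 0.936). ENSMUST00000187833 and ENSMUST00000188980 had r = 0.983 with each other. These values describe 9 shared arrays, and the highest r of many probes is high by choice.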

How the data were processed

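Liver RNA of 9 pools was measured on Agilent arrays. The authors' scanner files hold the processed signal, an intensity that was background-subtracted per the file headers. The headers name Agilent Feature Extraction 11.5.1.1 and the submitters' processing notes 10.7. The authors' deposited table of log2 values equalled the log2 processed signal minus 1 constant per array, within 0.01, so it served as an alternative only. Each array had 175906 spots outside the controls, of which 73 to 192 carried an outlier mark and were removed, and 0 were saturated. The upper-quartile signal was 191 to 279, over a local background of 20.0 to 24.5. Arrays give no counts, and their number limits the precision.

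From these files, the log2 processed signal was taken as the mean of a probe's spots, less the array's 75th percentile. Being above background needed the extraction software's flag on at least 0.5 of the spots, and probes meeting this on 3 or more arrays were tested. limma 3.58.1 in R 4.3.3 (lmFit, eBayes) was fitted to all tested probes with 1 mean per group, with 6 residual and 3.75 prior degrees of freedom, and was checked on simulated data. Like-signal shares used bins 0.5 wide on mean level.

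Groups and replicates came from the labels, which give separate pools. Same-numbered pools of different groups hold different mice, and their deviations correlated at -0.094 to 0.13, so they were not treated as pairs. The slides were read from the headers.

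The members and lists were chosen with earlier results of these data known. Transcripts were named by rule: those past the test, the 4 higher and 4 lower with the smallest p among those without overlap in each comparison, the 4 with the smallest and 4 with the largest SD among those above background on all 9 arrays, and those above background in 1 group alone. A set of well-known noncoding RNAs was also to be named, but none of the Ensembl identifiers was paired with a gene in the table used here. As each identifier had 1 probe, a planned comparison of probes of the same transcript was replaced by one of its 2 spots. Alternatives covered normalization, background correction (normexp with offset 50, on the median signal because the files hold no mean signal), filters, slide, replicate, spots and left-out pools.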

Additional observations from a re-analysis of the deposited data

How the results depend on the processing

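The directions of 22 of 24 changes of single named transcripts held under every alternative that gave a value. The exceptions were ENSMUST00000181411 in metformin against control, at -0.21 from the first spots, and ENSMUST00000186830 in metformin against high fat diet, at 0.045 from the second spots and 0.45 with outlier-marked spots kept. The 24 changes were of transcripts whose compared pools did not overlap, so leaving out pools could not reverse them. The replicate block, the filters and leaving out a pool of the group not compared keep a change as it is by construction. Much of this agreement was therefore fixed in advance. Settings on spots, and leaving out control pool 1 with high fat diet pool 3, were chosen after seeing the data. For high fat diet against control, the number past the test (1) was 0 with quantile normalization, no filter on dim probes, probes above background on all 9 arrays, the slide as a block, and first or second spots alone. It was 2 with the slide as a random block and 0 to 7 over the fits that left pools out. The number over all tested probes was 28 in the main fit, 202 with the random block and 0 to 296 with pools left out. The median change was -0.00044 with quantile normalization, -0.0067 without the filter, -0.010 with the slide as a block and -0.087 to 0.00085 with 1 pool left out, and 0.014 without both of those pools. For metformin against control, the number (5) was 8 with quantile normalization, 2 without the filter, 14 for probes above background on all 9 arrays, 0 with the slide as a block, 87 with the slide as a random block (consensus correlation -0.17), 3 for first and 3 for second spots alone, and 0 to 21 with 1 pool left out and 30 without both of those pools. The number over all tested probes (339) was 462 with quantile normalization, 96 of 97759 without the filter and 638 of 49429 on all 9 arrays. It was 0 with the slide as a block, 8243 with the random block, and 213 for first and 99 for second spots. With 1 pool left out it was 2 to 2711, and without both of those pools 3106. The median change was 0.024 with normexp, 0.0048 with quantile normalization, 0.023 without the filter, 0.00099 for probes on all 9 arrays, -0.0026 with the slide as a block and -0.082 to -0.0050 with pools left out. For metformin against high fat diet, the number was 0 in every fit run, and the median change was 0.056 with normexp and -0.012 to 0.033 with pools left out. The number over all tested probes in that comparison was 0 to 7. The difference in the share of probes above background there was -3.08 to 2.71 percentage points with pools left out. The cause was not tested.

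With the replicate number as a block, 0 Ensembl transcripts passed in high fat diet against control, 0 in metformin against high fat diet and 1 in metformin against control. The numbers over all tested probes were 0, 0 and 79 in that order. The pools share only a number, so this is no paired design.

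Dim probes limit these results: a signal near background gives a bound, not a fold. A probe that met the filter only through the group where it was high has a p that depends in part on that filter. With 3 pools a group and 1 slide arrangement in which no slide holds metformin and control together, slide and treatment can be separated only through the high fat diet pools.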
